A study of Mus musculus with 15 samples.

Results

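Interferon-stimulated genes and interferon regulatory factors (IRFs) were followed in cultures of dissociated mouse cerebellum exposed to IL-12, as 43 genes chosen by symbol out of the 35142 genes measured. The cells came from wild-type C57BL/6 pups at postnatal day 0 to 4 and were labelled as neurons. At day 14 in vitro they received IL-12p70 (the recombinant mouse protein, made of both subunits of the cytokine) at 30 or 100 ng/ml for 18 h, or were left unstimulated, and RNA of 5 cultures per condition was sequenced. The labels do not say whether the cultures of a condition came from separate litters or preparations, so each p-value measures the spread between these wells or cultures and no more.

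Type I interferons bind the receptor pair *Ifnar1* and *Ifnar2* and lead to a complex with IRF9 that binds the interferon-stimulated response element (ISRE). Interferon-gamma binds *Ifngr1* and *Ifngr2* and acts through the gamma-activated site (GAS). IL-12 acts through another receptor, and in T and NK cells it is best known for inducing interferon-gamma. In the brain, microglia and astrocytes express many interferon-stimulated genes at rest and raise them sharply when interferon is present. Background of this kind is not a result of these cultures.

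Promoter letters for both elements are shown first, because these are the sites through which interferon is known to reach such genes. RefSeq promoter windows, from 250 bases before to 50 after each gene start, were found for 34 of the 43 genes (RefSeq, table build GRCm38.p6), and the stretches were placed on GRCm39 by an exact match of the window. Capitals mark the element, searched on both strands as GAAANNGAAA or TTTCNNTTTC for the ISRE and as TTCNNNGAA, which reads the same on both strands, for the GAS. All stretches are written 5′ to 3′ on the strand of the gene, and overlapping matches run together.
*Isg15*, minus strand, chr4:156285320-156285365: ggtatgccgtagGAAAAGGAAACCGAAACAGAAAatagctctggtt
*Ifit1*, plus strand, chr19:34618173-34618225: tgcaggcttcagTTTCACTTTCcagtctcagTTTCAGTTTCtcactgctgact
*Ifit3*, plus strand, chr19:34560761-34560828: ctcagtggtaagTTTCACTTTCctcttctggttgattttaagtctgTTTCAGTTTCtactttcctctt
*Rsad2*, minus strand, chr12:26506550-26506583: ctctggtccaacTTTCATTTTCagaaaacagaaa
*Gbp2*, plus strand, chr3:142326355-142326384: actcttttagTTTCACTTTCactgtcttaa
*Gbp3*, plus strand, chr3:142265753-142265782: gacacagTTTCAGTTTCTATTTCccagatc
*Irf8*, plus strand, chr8:121462914-121462964: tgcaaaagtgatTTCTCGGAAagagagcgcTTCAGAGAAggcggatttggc
*Irf1*, plus strand, chr11:53660739-53660771: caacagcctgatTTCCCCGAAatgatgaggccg

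*Isg15*, *Ifit1*, *Ifit3* and *Rsad2* were chosen as classical type I targets that varied widely between cultures, *Gbp2* and *Gbp3* as genes that rose with IL-12, *Irf8* as the gene that fell, and *Irf1* as a classical GAS target. The ISRE letters were in the windows of 18 of the 34 genes (52.9%), against 3.99% of all 27025 symbols in the table. They were in all 7 of the interferon-inducible GTPases and in 1 of the 7 IRFs, *Irf2*. *Isg15* held 3 overlapping matches from 78 bases before its start, and *Irf8* held none and 2 matches of the GAS. The GAS letters were in 13 of the 34 windows (38.2%), against 9.55% of all symbols. A match of letters is a description and not a bound site, and binding was not measured. In GENCODE, the *Gbp2* and *Gbp3* genes start upstream of the stretches shown, which therefore lie within an annotated first exon or intron.

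Between 25746096 and 38435850 reads per culture were assigned. Estimated counts per transcript were summed to genes and tested with edgeR in a single fit of all 3 conditions, and a gene was called at a false discovery rate (FDR) under 0.05 over 15360 genes with enough reads. Of the 43 genes, 42 were tested. *Oas3*, a synthetase that makes the activator of RNase L, had between 2 and 22 reads per culture and fell under the filter, which asked for at least 1 CPM (reads scaled to library size with TMM factors) in at least 2 cultures. The cultures held RNA of several cell types. The summed level of 11 microglia markers was 7091 to 9994 TPM (length-corrected share of all transcripts) in unstimulated cultures, that of 10 astrocyte markers 3838 to 4297 TPM, that of 11 oligodendrocyte-lineage markers 6633 to 9843 TPM, and that of 15 cerebellar neuron markers 246 to 318 TPM. The neuronal markers thus had the lowest sum of these lists in cultures labelled as neurons. In bulk RNA, fewer cells of a type cannot be told apart from less RNA of a gene per cell.

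Levels of the 43 genes in unstimulated cultures, compared between genes on the TPM scale, ran from 0.120 TPM for *Oas3* to 483 ± 36.0 TPM (SD, n = 5) for *Ifitm3*, with a median of 12.3 TPM. *Ifitm3*, which restricts virus entry at membranes, and *Bst2*, the tetherin that holds budding virions, at 299 ± 60.3 TPM, were the only genes over 100 TPM. Next came the IRFs, with *Irf8*, a transcription factor of microglia and macrophages, at 58.4 ± 7.23 TPM and *Irf3*, which switches on interferon genes after viral sensing, at 54.0 ± 3.44 TPM. Among the other roles, *Irgm1*, a GTPase acting in autophagy of microbes, led the GTPases at 24.5 ± 3.55 TPM. *Oasl2* led the IFIT and OAS effectors at 22.5 ± 5.32 TPM. *Ifi35* led the regulators and nuclear proteins at 20.3 ± 1.36 TPM, *Isg15*, a ubiquitin-like modifier, led its conjugation group at 15.4 ± 5.73 TPM, and *Dhx58* led the nucleic acid sensors at 9.09 ± 2.17 TPM. In all, 23 genes lay between 10 and 100 TPM and 15 between 1 and 10 TPM. *Gbp5*, *Oas2* and *Oas3* lay under 1 TPM.

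At 100 ng/ml, 4 of the 42 genes tested rose (*Gbp2*, *Gbp3*, *Ifitm3* and *Ifi35*), 1 fell (*Irf8*) and 37 were not called. That is 11.9% of the genes, against 9.77% of all genes tested, of which 5.83% rose and 3.93% fell. At 30 ng/ml, *Gbp2* and *Ifitm3* rose, *Irf8* fell and 39 were not called, which is 7.14%, against 7.87% of all genes tested, with 4.16% higher and 3.71% lower. With both concentrations averaged, *Gbp2*, *Gbp3*, *Ifitm3* and *Irf8* were called, or 9.52% against 11.9% of all genes tested. Between 100 and 30 ng/ml, 0 of the 42 genes were called in edgeR and 0 in DESeq2, against 0.579% and 1.57% of all genes tested. In each tool, 5 of the 42 had an unadjusted p under 0.05. The share of all genes at that unadjusted threshold is not given here, so this count has no background. The shares called were close to the background in each comparison with unstimulated cultures. Spread between cultures was wider for these genes, with a median biological coefficient of variation of 14.1%, against 7.23% over all genes tested. A change of a given size is then harder to call, so these shares are not like for like. The comparisons share the unstimulated cultures and are not independent.

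**Figure D1:**
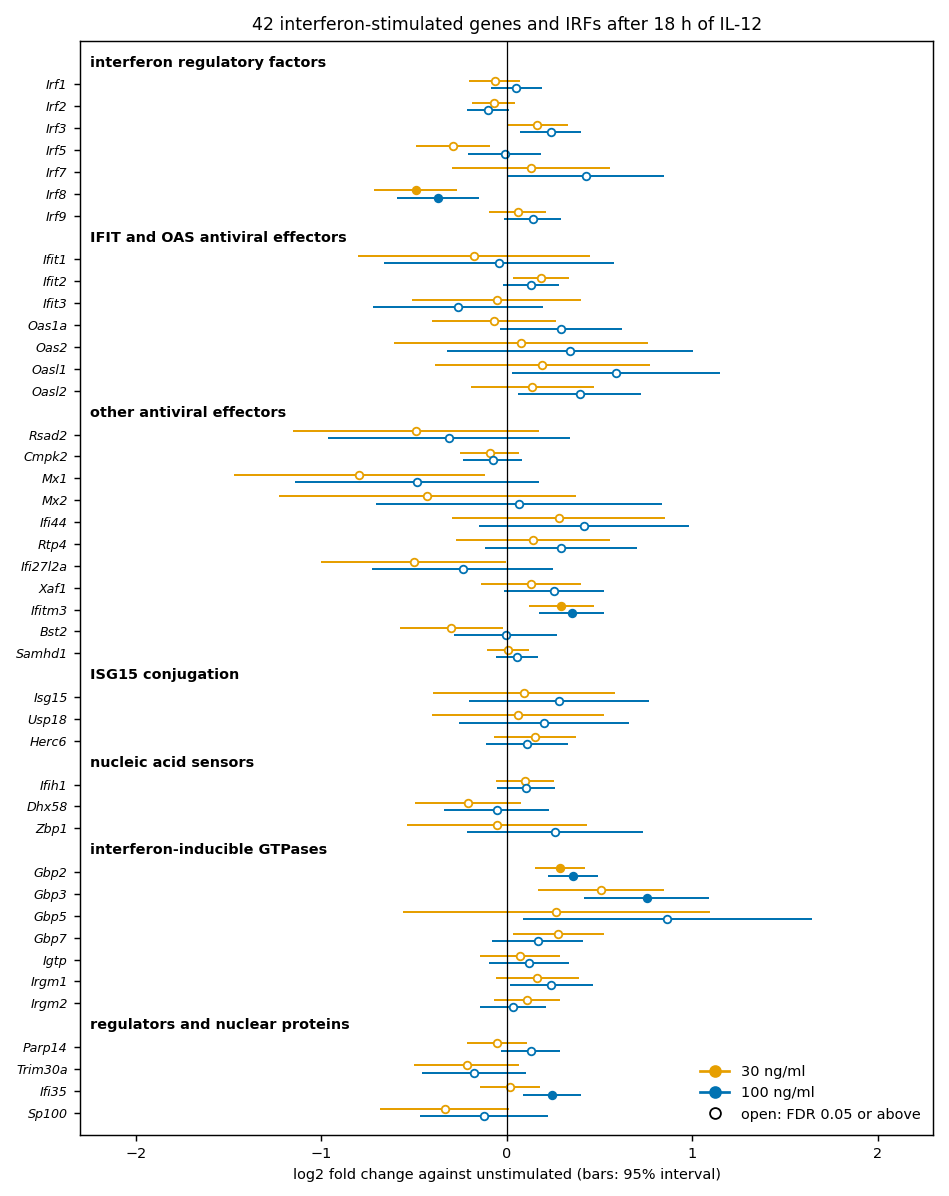
Log2 fold change against unstimulated cultures at 30 ng/ml (orange) and 100 ng/ml (blue) for the 42 genes tested, grouped by role, with 95% intervals as bars, filled circles for an FDR under 0.05 and open circles otherwise. Filled circles are seen for *Gbp2*, *Ifitm3* and *Irf8* at both concentrations and for *Gbp3* and *Ifi35* at 100 ng/ml, and the widest intervals belong to *Gbp5*, *Mx1*, *Mx2*, *Rsad2* and *Oas2*.

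The guanylate-binding proteins *Gbp2* and *Gbp3* are large GTPases that attack microbe-containing compartments in the cell. *Gbp2* (chromosome 3, 142326349 to 142343779, plus strand, GRCm39) had 23.9, 24.99, 23.6, 22.6 and 21.6 CPM in unstimulated replicates 1 to 5, 31.0, 26.9, 31.9, 25.7 and 26.8 CPM at 30 ng/ml, and 30.6, 31.6, 29.5, 28.4 and 29.2 CPM at 100 ng/ml. Every stimulated culture lay above every unstimulated culture. The log2 fold change was 0.35 (SE 0.062, FDR 0.00156) at 100 ng/ml and 0.29 (SE 0.062, FDR 0.00929) at 30 ng/ml. *Gbp3* (chromosome 3, 142265731 to 142278979, plus strand) had 8.33, 10.5, 10.7, 8.86 and 7.34 CPM unstimulated, 17.2, 9.70, 15.6, 11.4 and 11.1 CPM at 30 ng/ml, and 16.1, 20.3, 13.6, 14.1 and 13.2 CPM at 100 ng/ml. All cultures at 100 ng/ml lay above all unstimulated cultures, while replicate 2 at 30 ng/ml lay within the unstimulated range. The log2 fold change of *Gbp3* was 0.75 (SE 0.156, FDR 0.00587) at 100 ng/ml, which is 1.69-fold, and 0.51 (SE 0.158, FDR 0.0566) at 30 ng/ml, which is not a call.

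The other 5 GTPases were not called at either concentration. All 7 GTPases had a positive log2 fold change at both concentrations, and their medians for 100 and 30 ng/ml were 0.24 and 0.27, where the median of all genes tested was near 0. *Gbp5*, the lowest at 9 to 44 reads per culture, had an estimate of 0.87 at 100 ng/ml (95% interval 0.09 to 1.64, FDR 0.146). *Irgm1*, the highest of the GTPases, had 32.1, 27.9, 39.2, 36.4 and 26.6 CPM unstimulated, 40.3, 30.7, 42.6, 35.0 and 33.2 CPM at 30 ng/ml, and 39.3, 40.7, 36.9, 41.1 and 33.7 CPM at 100 ng/ml, so the groups overlapped. The immunity-related GTPases *Igtp*, *Irgm1* and *Irgm2* had estimates of 0.12, 0.24 and 0.03 at 100 ng/ml, and *Gbp7* had 0.17. Members of the *Gbp* cluster on chromosome 3 share sequence, and reads were divided between them by the program that made the estimates. *Igtp* and *Irgm2* overlap on the plus strand of chromosome 11. The 7 positive signs are therefore not 7 independent values.

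*Ifitm3* (chromosome 7, 140589499 to 140591282, minus strand) had 149, 174, 179, 165 and 144 CPM unstimulated, 207, 188, 205, 216 and 178 CPM at 30 ng/ml, and 245, 176, 204, 214 and 193 CPM at 100 ng/ml. The groups overlapped by a single culture at each concentration, replicate 5 at 30 ng/ml and replicate 2 at 100 ng/ml, each just under the highest unstimulated culture. The log2 fold change was 0.35 (SE 0.081, FDR 0.0118) at 100 ng/ml and 0.29 (SE 0.081, FDR 0.0324) at 30 ng/ml. The summed level of astrocyte markers was also higher at 30 ng/ml, at 4550 to 5308 TPM, above all unstimulated cultures (3838 to 4297 TPM). At 100 ng/ml it was 4261 to 4716 TPM, above them in 4 of 5 cultures. Of the 10 markers, 3 rose and 0 fell at 30 ng/ml, against 4.16% and 3.71% of all genes tested. At 100 ng/ml, 1 rose and 1 fell, against 5.83% and 3.93%, so the list did not move as a whole there. The part of astrocyte RNA in the rises of *Gbp2* and *Ifitm3* was not tested. *Ifi35* (chromosome 11, 101339221 to 101352693, plus strand), a leucine zipper protein that partners with NMI, had 14.2, 14.8, 17.1, 16.2 and 13.5 CPM unstimulated, 15.3, 14.2, 16.4, 16.4 and 14.5 CPM at 30 ng/ml, and 19.7, 18.2, 18.0, 18.2 and 15.7 CPM at 100 ng/ml. At 100 ng/ml, replicate 5 lay within the unstimulated range and the other 4 cultures above it. The log2 fold change of *Ifi35* was 0.24 (SE 0.072, FDR 0.0416) at 100 ng/ml and 0.02 (SE 0.073, FDR 0.926) at 30 ng/ml. The direct comparison of the concentrations gave 0.23 (SE 0.072, FDR 0.202), so a difference between them was not shown for *Ifi35*. The *Ifi35* call was lost in 9 of the 25 alternative analyses, among them those without unstimulated replicate 5 and without replicate 1 or 3 at 100 ng/ml. *Ifi35* overlaps *Vat1* on the opposite strand, and whether the estimates used the strand is not given in the sources used here.

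*Irf8* (chromosome 8, 121463096 to 121485659, plus strand) was the only one of these genes that fell. It had 74.6, 74.0, 97.3, 101.5 and 93.9 CPM unstimulated, 52.2, 62.9, 72.1, 70.0 and 56.2 CPM at 30 ng/ml, and 69.7, 65.6, 59.3, 77.8 and 68.5 CPM at 100 ng/ml. All cultures at 30 ng/ml lay below all unstimulated cultures, and at 100 ng/ml replicate 4 lay within the unstimulated range. *Irf8* fell by 0.49 on the log2 scale (SE 0.103, FDR 0.00756) at 30 ng/ml and by 0.37 (SE 0.102, FDR 0.0302) at 100 ng/ml. The call at 100 ng/ml was lost in 8 of 25 alternative analyses, those without unstimulated replicate 3 or 4 among them. Microglia markers moved with *Irf8* at 30 ng/ml: 7 of 11 fell and 0 rose, where 3.71% of all genes tested fell. Their median log2 fold change was -0.42, and their summed level was 5630 to 7080 TPM, against 7091 to 9994 TPM unstimulated. At 100 ng/ml, 0 of the 11 markers were called in edgeR, 1 had an unadjusted p under 0.05, their median was -0.12, and their sum was 6744 to 8972 TPM. The part of microglial RNA in the *Irf8* values was not tested.

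**Figure D2:**
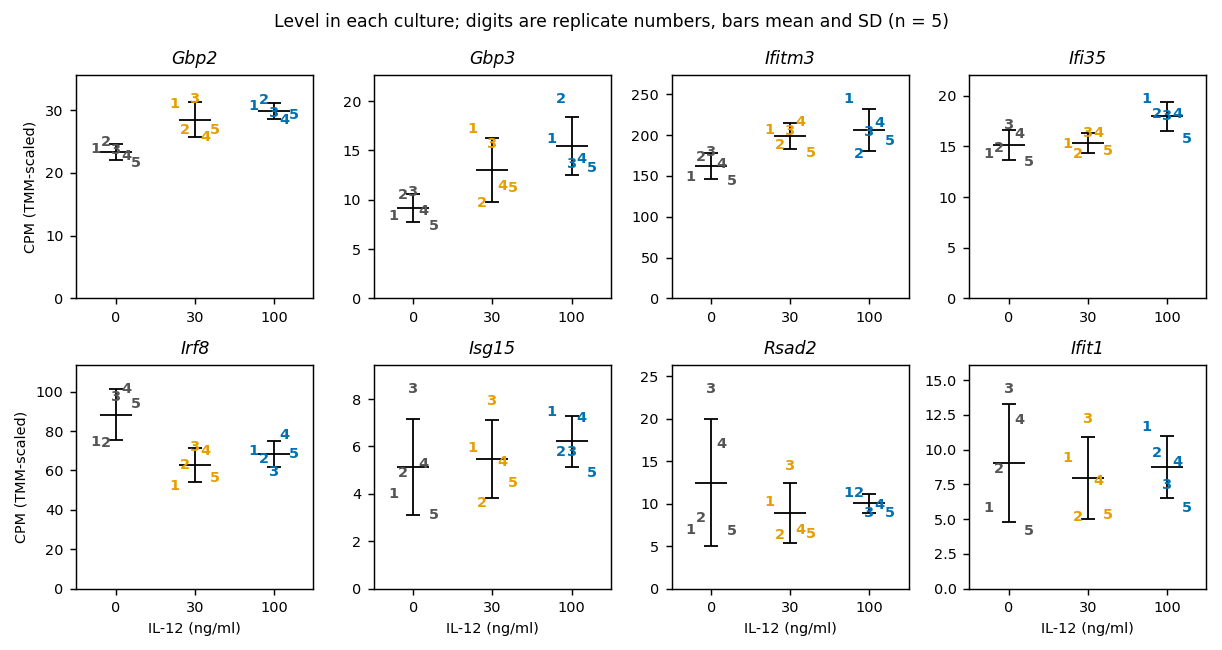
CPM of 8 genes in each of the 15 cultures, with digits for the replicate number, a horizontal bar for the mean and whiskers for the SD (n = 5 per condition) and axes that start at 0. *Gbp2* lies above the unstimulated range in all 10 stimulated cultures and *Irf8* below it in all 5 cultures at 30 ng/ml, while *Isg15*, *Rsad2* and *Ifit1* overlap across all conditions and are highest in unstimulated replicate 3.

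The remaining IRFs were not called. *Irf1*, a transcriptional activator and a sensitive reporter of interferon-gamma, had estimates of 0.05 on the log2 scale at 100 ng/ml (95% interval -0.08 to 0.18) and -0.06 at 30 ng/ml (-0.20 to 0.07). *Irf9*, the DNA-binding part of the complex at the ISRE, had 0.14 (-0.01 to 0.29) and 0.06 (-0.09 to 0.21). *Irf7*, the amplifier of type I interferon, had 0.43 (0.01 to 0.84, FDR 0.179) and 0.13 (-0.29 to 0.55). *Irf3* had 0.24 (FDR 0.0545) and 0.16 (FDR 0.207), next to the threshold at 100 ng/ml, where DESeq2 and the likelihood-ratio test called it. *Irf3* overlaps *Bcl2l12* and *Scaf1* on the opposite strand. *Irf2*, a repressor of IRF1 targets, had -0.10 and -0.07. *Irf5*, a factor of macrophage inflammation, had -0.01 (FDR 0.956) and -0.29 (FDR 0.0635), and was called at 30 ng/ml in DESeq2 and in the likelihood-ratio test.

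Of the IFIT and OAS effectors, none of the 7 tested was called in edgeR at either concentration. In edgeR, 2 at 100 ng/ml (*Oasl1* and *Oasl2*) and 1 at 30 ng/ml (*Ifit2*) had an unadjusted p under 0.05. DESeq2 likewise called none of them. The estimates at 100 ng/ml were -0.04 for *Ifit1* (95% interval -0.66 to 0.57), 0.13 for *Ifit2* (-0.02 to 0.27) and -0.26 for *Ifit3* (-0.71 to 0.19). *Oas1a*, *Oas2*, *Oasl1* and *Oasl2* had 0.29, 0.34, 0.59 and 0.39, with the smallest FDR at 0.116 for *Oasl2*. *Oasl2*, the highest of the group, had 21.1, 21.7, 31.8, 20.97 and 17.8 CPM unstimulated, 29.7, 19.9, 30.02, 24.7 and 20.4 CPM at 30 ng/ml, and 33.4, 33.6, 26.2, 33.5 and 22.3 CPM at 100 ng/ml. All cultures at 100 ng/ml exceeded unstimulated replicates 1, 2, 4 and 5, and 2 of them lay below unstimulated replicate 3. Precision differed widely within the group, with an SE of 0.293 for *Ifit1* and 0.069 for *Ifit2*.

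Among the other antiviral effectors, *Ifitm3* was the only call of 11. *Rsad2*, viperin, which makes a chain-terminating nucleotide, had estimates of -0.31 at 100 ng/ml (95% interval -0.96 to 0.34) and -0.49 at 30 ng/ml (-1.15 to 0.17). The dynamin-like GTPases *Mx1* and *Mx2* had -0.48 and 0.06 at 100 ng/ml, and -0.79 (FDR 0.14) and -0.43 at 30 ng/ml. *Cmpk2*, *Ifi27l2a* and *Bst2* had negative estimates at both concentrations. *Ifi44*, *Rtp4*, *Xaf1* and *Samhd1*, a triphosphohydrolase that lowers dNTP pools, had positive ones, none over 0.42. *Samhd1* was the most tightly measured, at 0.06 (-0.05 to 0.16) and 0.00 (-0.10 to 0.11).

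The ISG15 conjugation genes were not called. *Isg15* had 3.97, 4.88, 8.44, 5.27 and 3.10 CPM unstimulated, 5.94, 3.61, 7.93, 5.32 and 4.46 CPM at 30 ng/ml, and 7.46, 5.75, 5.77, 7.198 and 4.87 CPM at 100 ng/ml. The groups overlapped throughout, and the highest of all 15 cultures was an unstimulated culture, replicate 3. The log2 fold change of *Isg15* was 0.28 (95% interval -0.20 to 0.76) at 100 ng/ml and 0.09 (-0.40 to 0.58) at 30 ng/ml. *Usp18*, which removes ISG15 and damps the type I receptor, had 0.20 and 0.06. *Herc6*, the ISG15 ligase, had 0.11 and 0.15. The RNA sensors *Ifih1* and *Dhx58* and the Z-nucleic acid sensor *Zbp1* had estimates of 0.10, -0.05 and 0.26 at 100 ng/ml. *Dhx58*, the highest sensor by TPM in unstimulated cultures only, as *Ifih1* was higher over all cultures (9.39 against 8.63 TPM), had 9.62, 9.68, 14.5, 12.1 and 9.36 CPM unstimulated, 9.61, 8.65, 10.8, 9.83 and 8.85 CPM at 30 ng/ml, and 11.3, 10.2, 8.91, 13.8 and 8.89 CPM at 100 ng/ml, with overlap throughout. *Parp14*, *Trim30a* and *Sp100*, which regulate signalling and nuclear bodies, had 0.13, -0.18 and -0.12, and none was called.

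Over the 42 genes, no estimate exceeded 1 on the log2 scale in either direction at either concentration. The 95% interval stayed between -1 and 1 for 37 genes at 100 ng/ml and for 38 at 30 ng/ml. The median log2 fold change was 0.13 at 100 ng/ml, with 29 of 42 estimates positive, and 0.06 at 30 ng/ml, with 24 of 42 positive, where all genes tested had medians of -0.004 and 0.0001 and 48.7% and 50.1% positive. These genes vary together between cultures, as described further on, so such counts rest on far fewer than 42 independent values.

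Of 108 further genes of the interferon pathway, listed for their roles, 83 were tested, and 7 were called at 100 ng/ml (8.43%, against 9.77% of all genes tested) and 5 at 30 ng/ml (6.02%, against 7.87%). Both shares were close to the background. Interferon transcripts themselves were at the floor: of 19 ligand genes, 16 had no read in any culture and the other 3 had at most 1 read in a culture. *Ifng* had 2 reads over all 15 cultures and *Ifnb1* had 0. A count of 0 allows up to 3 reads per library. In unstimulated cultures, receptor levels were 59.3 TPM for *Ifnar1*, 82.0 TPM for *Ifnar2*, 62.1 TPM for *Ifngr1*, 78.6 TPM for *Ifngr2* and 81.6 TPM for *Il10rb*, against 0.475 TPM for *Ifnlr1*, the interferon-lambda receptor chain. *Ifngr1* fell by 0.28 on the log2 scale at 30 ng/ml (FDR 0.00721), and edgeR called no other receptor. *Ifnar1* and *Ifnar2* had FDRs of 0.0514 and 0.0702 there, and were called lower by DESeq2 and the likelihood-ratio test.

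*Stat2*, both a transducer and a target of type I interferon, had an estimate of 0.07 (SE 0.083, FDR 0.628) at 100 ng/ml and 0.02 at 30 ng/ml. The kinases *Jak1*, *Jak2* and *Tyk2* had -0.11, -0.07 and 0.08 at 100 ng/ml and were not called at either concentration. The called genes at 100 ng/ml were *Socs3*, a feedback inhibitor of cytokine receptors, at 0.47, *Ikbke* at 0.46, the adhesion molecule *Icam1* at 0.34, the immunoproteasome subunit *Psmb10* at 0.30, *Nmi*, the partner of IFI35, at 0.28, *Myd88* at 0.26, and *Cd274*, the ligand of PD-1, at -0.39. At 30 ng/ml, *Socs3* rose by 0.49, and *Cd274*, *H2-Ab1*, *Slfn8* and *Ifngr1* fell. At 100 ng/ml, *Nmi* was lost in 12 of 25 alternative analyses, the replicate block among them, *Cd274* in 9 and *Psmb10* in 6. At 30 ng/ml, *H2-Ab1* was lost in 10, the replicate block among them, and *Slfn8* in 9, while the other calls held in all 25. *Cxcl10*, a chemokine that interferons of either type induce strongly, had 0.21 (FDR 0.711) and 0.26 (FDR 0.674). Of 15 T and NK cell markers, 13 averaged under 1 TPM, and their summed level was 5.69 to 9.68 TPM over all cultures.

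Spread between cultures of the same dose was larger for these genes than for most. The biological coefficient of variation (BCV), edgeR's estimate of the spread beyond counting error, had a median of 14.1% over the 42 genes, with a range of 5.46% to 40.5%, and a median of 7.23% over all genes tested. It was over the median of all genes for 38 of 42, over their 75th percentile of 10.2% for 28 and over their 90th percentile of 14.9% for 19. Spread depends on level, so each gene was also set against edgeR's trend for its level. The BCV was above the trend for 35 of 42 genes, with a median ratio of 1.56, where 30.3% of all genes were above it and the median ratio was 0.851. It was over 2 times the trend for 10 genes (*Rsad2*, *Ifit1*, *Ifit3*, *Mx2*, *Ifi27l2a*, *Oasl2*, *Bst2*, *Rtp4*, *Irf7* and *Isg15*), and for 2.05% of all genes.

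**Figure D3:**
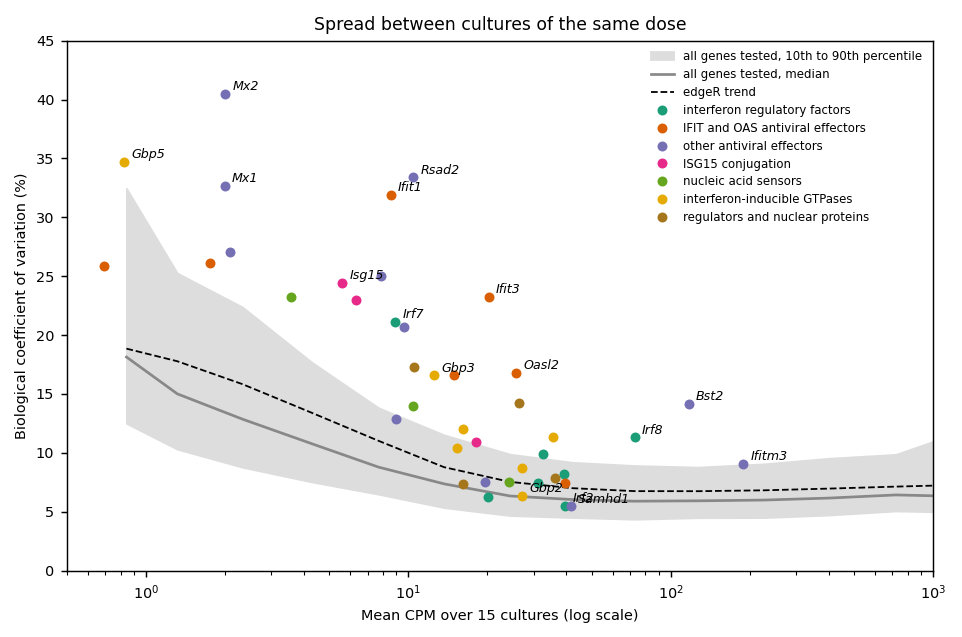
BCV in percent against mean CPM (log scale) for the 42 genes, coloured by role, with the median (grey line) and the 10th to 90th percentile (grey band) of all genes tested at that level, and edgeR's trend (dashed). *Rsad2*, *Ifit1*, *Ifit3*, *Oasl2* and *Bst2* lie above the band at their level, while *Irf2*, *Samhd1* and *Gbp2* lie within it near the median line.

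By role, the median BCV was 23.3% for the IFIT and OAS effectors, 23.0% for ISG15 conjugation, 20.7% for the other antiviral effectors, 13.9% for the sensors, 11.3% for the GTPases, 11.03% for the regulators and 8.18% for the IRFs. *Rsad2* had the widest spread for its level, with a BCV of 33.4%, 3.39 times the trend. It had 6.92, 8.25, 23.5, 16.96 and 6.73 CPM in unstimulated cultures, 10.2, 6.26, 14.4, 6.94 and 6.41 CPM at 30 ng/ml, and 11.2, 11.2, 8.91, 9.79 and 8.95 CPM at 100 ng/ml. Unstimulated replicates 3 and 4 stood above all the stimulated cultures, and the highest unstimulated culture was 3.50 times the lowest, against 1.26 times at 100 ng/ml. *Ifit1* ran 5.83, 8.64, 14.4, 12.1 and 4.17 CPM unstimulated, 9.41, 5.18, 12.2, 7.73 and 5.27 CPM at 30 ng/ml, and 11.6, 9.74, 7.45, 9.12 and 5.83 CPM at 100 ng/ml. Again unstimulated replicate 3 was highest of all and unstimulated replicate 5 lowest of all.

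The same cultures were high or low for most of the genes. Unstimulated replicate 3 was the highest of its dose for 34 of the 42 genes and above its dose mean for 40, by a mean of 0.39 on the log2 scale, and replicate 4 was above the mean for 34. Unstimulated replicate 5 was the lowest for 27 genes and lay under the mean by 0.29 on average (mean deviation -0.29). At 30 ng/ml, replicate 3 was highest for 26 genes and above the mean for 40 (mean deviation 0.27), replicate 2 was lowest for 17 and replicate 5 for 16. At 100 ng/ml, replicates 1, 2 and 4 were highest for 15, 14 and 12 genes and replicates 5 and 3 lowest for 20 and 13, with mean deviations from -0.19 to 0.15. Over all genes tested the median deviation of a culture was between -0.0082 and 0.0093. TMM scaling itself holds this median near 0, so it cannot show whether a whole library was shifted. Replicate 5 was low at all 3 doses, whereas replicate 3 was high in unstimulated cultures and with 30 ng/ml and low with 100 ng/ml. The labels do not say whether a number links cultures of different doses.

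**Figure D4:**
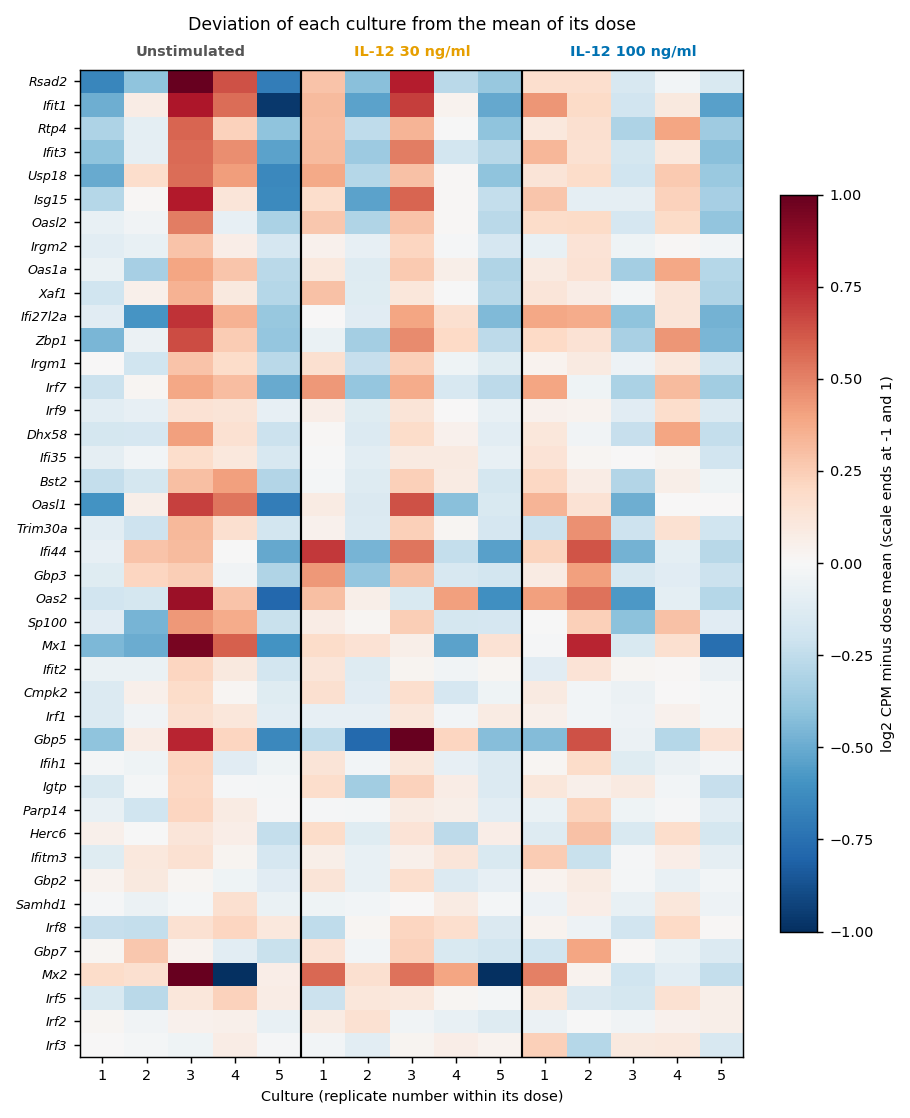
Log2 CPM of each culture minus the mean of its dose for the 42 genes (rows, ordered by the median correlation with the other genes) and 15 cultures (columns), red above and blue below the mean, with a colour scale that ends at -1 and 1. Columns for replicate 3 of the unstimulated and the 30 ng/ml cultures are red and those for replicate 5 blue in most rows. Among the lowest rows, this pattern is faint or absent for *Samhd1*, *Irf8*, *Gbp7*, *Irf5*, *Irf2* and *Irf3*. *Mx2*, also among them, is strongly coloured in these columns except for unstimulated replicate 5.

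Across the 15 cultures, these deviations had a median correlation of 0.58 over the 861 pairs of the 42 genes, and 61.4% of the pairs had an r over 0.5. Over all pairs of genes tested, the median was -0.003 and 9.27% had an r over 0.5. Within a dose, the median over the pairs in unstimulated cultures was 0.75, that with 30 ng/ml was 0.63 and that with 100 ng/ml was 0.49, each over 5 cultures only. The points share libraries, and the correlations are a description. *Rsad2*, *Ifit1* and *Rtp4* followed the other genes most closely, each with a median r of 0.75. *Irf3* (0.10), *Irf2* (0.17), *Irf5* (0.21), *Mx2* (0.28), *Gbp7* (0.32), *Irf8* (0.34) and *Samhd1* (0.35) followed them least, and *Gbp2* (0.40) and *Ifitm3* (0.43), which rose with IL-12, were also low in this order. *Mx2* went its own way in unstimulated replicate 4, at 0.61 CPM where the other 4 cultures had 1.95 to 4.02 CPM. For genes this low the spread depended on the scale. The unstimulated coefficient of variation was 56.4% in CPM and 42.4% in TPM for *Mx2*, and 22.6% and 37.3% for *Ifi44*.

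Summed microglia markers followed the order of the cultures in part. In unstimulated cultures they were 7825, 7091, 9457, 9994 and 8540 TPM for replicates 1 to 5, so that replicates 3 and 4 were the top 2 in both measures, while replicate 5, lowest for 27 of the interferon-stimulated genes, was in the middle. At 30 ng/ml they were 5630, 6744, 7080, 6988 and 6044 TPM, with replicate 3 highest in both, and with replicate 1 lowest in the markers but above the mean for 32 of 42 genes. At 100 ng/ml they were 7687, 7539, 6744, 8972 and 7867 TPM, with replicate 3 lowest in the markers and low in the genes (mean deviation -0.16), replicate 4 highest in the markers and above the mean in the genes (0.095), and replicate 5, the lowest in the genes, next to the top in the markers. Another list ran the other way in unstimulated cultures. Summed oligodendrocyte-lineage markers were lowest in replicates 3 and 4, at 7022 and 6633 TPM, against 8461 to 9843 TPM in the other unstimulated cultures. With 30 ng/ml, replicate 3 was in the middle of that list, and with 100 ng/ml replicate 5 was its highest, at 7196 TPM. The part of microglial or oligodendrocyte-lineage RNA in the spread was not tested.

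Spread and effect were of the same order. The median SD within a dose was 0.23 on the log2 scale for the 42 genes and 0.11 for all genes tested. The log2 fold change was smaller than the gene's own SD within a dose for 25 of 42 genes at 100 ng/ml (59.5%) and for 30 at 30 ng/ml (71.4%), against 61.1% and 64.2% of all genes tested. The share of a gene's variance that lay between doses had a median of 22.7% over the 42 genes and 22.8% over all genes tested. It was highest for *Gbp2* (75.1%), *Gbp3* and *Irf8* (60.1% each), *Ifitm3* (58.1%) and *Ifi35* (52.2%), and under 10% for *Ifit1* (2.02%), *Ifit3* (6.59%), *Usp18* (7.64%), *Igtp* (8.63%) and *Rsad2* (8.71%). This share comes from the same counts as the calls, so its order is not separate support for them.

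The spread was also unequal between doses. The median SD was 0.25 unstimulated, 0.20 at 30 ng/ml and 0.23 at 100 ng/ml, and for all genes tested 0.10, 0.09 and 0.13. The unstimulated SD was above that at 100 ng/ml for 33 of 42 genes, against 37.4% of all genes tested. As these genes vary together, that count rests on a few cultures and not on 42 separate comparisons. The highest culture was over 2 times the lowest for 12 genes unstimulated (28.6%), 8 at 30 ng/ml (19.0%) and 4 at 100 ng/ml (9.52%), where all genes had 4.11%, 4.56% and 4.38%. Without unstimulated replicate 3, the median coefficient of variation of the unstimulated cultures was 15.2%, against 17.3% with it. At 100 ng/ml it was 16.6%, so the order of unstimulated and 100 ng/ml cultures changed without unstimulated replicate 3. Without that culture, 5 genes were called at 100 ng/ml, where *Oasl2* was added and *Irf8* lost, and 4 at 30 ng/ml, where *Ifit2* was added. Of all genes tested, 7.53% at 100 ng/ml and 4.39% at 30 ng/ml were then called.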

How the data were processed

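RNA of 15 cultures was sequenced from stranded poly(A) libraries. The methods and labels describe alignment with STAR 2.7.8a to GRCm39 and counting with featureCounts. The values deposited by the authors are instead an estimated count, a TPM and an effective length per transcript, and the program that made them is not given in the sources used here. Estimated counts and deposited TPM of 121798 transcripts (120537 matched) were summed to genes with GENCODE M39, and counts were rounded.

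Genes reaching 1 CPM in 2 or more cultures were scaled with TMM and tested with edgeR 4.0.16 (quasi-likelihood, 1 fit of 3 groups, 4 comparisons, Benjamini-Hochberg FDR, 95% intervals) in R 4.3.3. The fit was tested on simulated counts. The common BCV was 8.00%. Alternatives were DESeq2 1.42.0, RLE factors, library size alone, other filters, the likelihood-ratio test, effective length offsets, a replicate block, only the groups compared, each culture left out, TPM for the spread, and limma 3.58.1 on log2(TPM + 0.5), the last chosen after seeing the data. Log2 CPM for deviations used a prior count of 2.

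The 43 genes, the lists and the rule for genes given by culture (those called, and the highest of each role by TPM) were chosen with earlier results of these data known. *Rsad2*, *Ifit1* and *Mx2* were added for their spread, after their values were seen. Replicate cultures differed by 2.38 to 12.7 times the sampling noise, so none was a copy of another. Intervals cover the spread between cultures, and floors counting error only. Values of 1 further pathway gene are not reported here.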

Additional observations from a re-analysis of the deposited data

Results flagged for a closer look

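For 5 of 129 sets of 5 cultures (43 genes in 3 conditions), the highest or lowest culture stood apart from the rest by more than 0.71 of the whole range. Chance sets apart about 1 in 20 groups. In unstimulated replicate 3, *Oasl2* was at 31.8 CPM, with the next culture at 21.7 CPM and the lowest at 17.85 CPM, and *Ifih1* was at 26.7 CPM, with the others from 21.2 to 22.7 CPM. *Samhd1* was at 45.8 CPM in unstimulated replicate 4, against 39.2 to 40.7 CPM. *Mx1* was at 0.996 CPM in replicate 4 at 30 ng/ml, against 1.53 to 1.68 CPM. *Parp14* was at 45.4 CPM in replicate 2 at 100 ng/ml, against 36.1 to 38.6 CPM.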

How the results depend on the processing

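No called value turned its direction in any of the 25 alternative analyses. *Gbp2* at both concentrations, *Gbp3* and *Ifitm3* at 100 ng/ml and *Irf8* at 30 ng/ml stayed called in all 25. *Ifitm3* at 30 ng/ml was lost in 6, and *Gbp3* at 30 ng/ml was called in 7 and *Irf3* at 100 ng/ml in 5. The 3 members called at 30 ng/ml became 5 in DESeq2 and 5 in the likelihood-ratio test, and the 5 called at 100 ng/ml became 3 with effective length offsets. The share of all genes called went from 7.87% to 10.9% and 10.4% at 30 ng/ml, and from 9.77% to 5.9% at 100 ng/ml. The 5 further pathway genes called at 30 ng/ml became 9 in DESeq2, 9 in the likelihood-ratio test, 3 with effective length offsets and 8 with only the groups compared. Of all genes tested, 10.9%, 10.4%, 5.05% and 10.1% were called in these analyses, in that order. With 1 culture left out, 3 to 6 members were called at 100 ng/ml, 2 to 5 at 30 ng/ml, 4 to 5 for both averaged and 0 for 100 against 30 ng/ml. Further pathway genes called were 4 to 8 at 100 ng/ml and 3 to 13 at 30 ng/ml, the 13 without unstimulated replicate 2. The share of all genes called ran from 6.13% to 19.1% at 100 ng/ml and from 4.39% to 10.9% at 30 ng/ml. For both averaged it ran from 7.84% to 18.5%, and for 100 against 30 ng/ml from 0.248% to 0.959%. The highest share in each of these ranges was that without replicate 2 at 100 ng/ml. Without unstimulated replicate 2 the share was 10.1% at 30 ng/ml. The cause of these changes was not tested. The median coefficient of variation was 17.3% unstimulated, 13.6% at 30 ng/ml and 16.6% at 100 ng/ml, and with 1 culture left out 15.2% to 19.4%, 12.8% to 14.5% and 12.7% to 16.6%. Samples with the same replicate number correlated between -0.183 and 0.264, with 4 of 15 pairs over 0.1 and 2 of 15 best with their own number, under the level set for treating the numbers as pairs. With a replicate block, 5, 3, 0 and 5 members were called at 100 ng/ml, at 30 ng/ml, for 100 against 30 ng/ml and for both averaged. Of all genes tested, 7.61%, 7.04%, 0.449% and 10.4% were called there, in that order. *Oas2*, *Oas3* and *Gbp5*, with at most 44 reads in a culture, are limited by depth.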

Other observations

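Genes outside the 43 were ordered, after the values were seen, by how closely their deviations from the dose means followed the mean deviation of the 42 tested genes over the 15 cultures. Among the first 50 of 15318 genes, with r between 0.78 and 0.93, 19 were on the list of further interferon pathway genes, which made up 0.542% of the genes ordered. *Ifit3b*, whose reads are divided with the near-identical *Ifit3*, had an r of 0.93, *H2-D1* 0.90, *Stat2* 0.90, *H2-K1* 0.85 and *B2m*, the light chain of MHC class I, 0.84. *Ifi209* and *Ifi211*, members of the interferon-inducible p200 family that were on neither list, had the highest values, 0.93 each. Of these 50 genes, 3 were called at 100 ng/ml and 2 at 30 ng/ml, where 9.77% and 7.87% of all genes tested were called. The correlations share libraries and are a description.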
